A study of Mus musculus with 9 samples.

Results

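A set of 10 genes of the Notch pathway was followed in the dorsal telencephalon of newborn mice by RNA sequencing: the receptors Notch1 and Notch2, the ligands Dll1, Dll3 and Jag1, the Fringe enzymes Mfng and Lfng, and the targets Hes1, Hes5 and Hey1. The 10 genes were taken by name from the 41128 genes of the deposited tables, and all 10 were found and passed the filter on low counts. The study compared 3 genotypes of the transcription factor gene Tcf4, with 3 libraries of each: TCF4 knockout (KO), TCF4 heterozygote (Het) and wild type (WT). All 9 libraries came from pups of strain B6:129SF2/J on postnatal day 0, with no treatment named. The sources used here do not say what was removed from Tcf4 or whether each library is a separate pup, and a p-value therefore reflects only how much these libraries vary.

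Notch signalling passes between touching cells. A ligand of the Delta or Jagged family on one cell binds a Notch receptor on its neighbour, the receptor is cut by an ADAM protease and by gamma-secretase, and its intracellular part joins RBPJ and Mastermind on DNA to switch on Hes and Hey repressors. In the developing cortex, radial glia hold high Notch activity and stay progenitors, while cells that are starting to become neurons carry Delta ligands under the control of proneural factors such as Neurog2. Fringe enzymes add N-acetylglucosamine to the receptor and so change which ligands it answers to. TCF4 is an E protein, a class of basic helix-loop-helix factor that pairs with proneural factors on E-box sequences.

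Levels are given below as CPM, a gene's read count over the TMM-scaled library size, and a gene is called where edgeR's quasi-likelihood test gave a Benjamini-Hochberg adjusted p under 0.05 over the 15271 genes tested. Total counts ran from 22291940 to 29445788 per library. The deposited counts do not by themselves show the Tcf4 genotype: Tcf4 had 712, 728 and 584 CPM in WT, 822, 652 and 719 in Het and 638, 633 and 611 in KO, with a log2 fold change (below, log2 change) of -0.10 for KO against WT (SE 0.09, adjusted p = 0.36). Without WT replicate 3, the lowest WT library, it was -0.20 (adjusted p = 0.046). Reads over a deleted stretch cannot be told from the rest in counts per gene, so this is no check of the deletion, and genotype names below are those of the labels. The WT libraries stood apart from the other 6 along the first principal component (64.1% of the variance), at -64.5 to -54.3 against 20.3 to 39.0. Marker lists of several cell types differed with them. Summed markers of striatal neurons were 312 to 339 CPM in WT, 60.5 to 74.2 in Het and 63.2 to 66.5 in KO, and those of astrocytes were 638 to 701, 297 to 334 and 237 to 280. The 4 dorsal telencephalon markers were detected in every library, at 625 to 709 CPM summed in WT, 723 to 769 in Het and 793 to 841 in KO. Of these 4, 3 were called higher and 0 lower in each mutant against WT. KO replicate 3 had 2730 Xist counts against 0 to 3 in each of the other 8 libraries and 2 counts of the Y-linked Ddx3y, so it is female and the others are male. Processed pseudogenes held 0.253% to 0.313% of the counts in WT and 0.0804% to 0.09998% elsewhere. WT replicate 2 had 1926 counts of the immediate early gene Fos against 19 to 95 elsewhere.

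In KO against WT, the ligands Dll1 and Jag1, the receptors Notch1 and Notch2 and the Fringe enzyme Mfng were higher and the target Hey1 was lower. Thus 5 of the 10 genes were called higher and 1 lower, where 26.5% of all tested genes were called higher, 26.3% lower and 52.8% in either direction. The share of the 10 genes called was therefore close to the share of all genes called. Their median log2 change was 0.20, beside 0.01 for all genes tested. In Het against WT, 4 were called higher (Notch2, Dll1, Jag1 and Mfng) and 2 lower (Lfng and Hey1), with 22.5%, 23.4% and 45.9% of all genes called higher, lower and in either direction, and the median was 0.04 beside 0.01. In KO against Het, Mfng, Lfng and Hes5 were called higher and no gene lower, with 8.3% of all genes called higher, 8.44% lower and 16.7% in all, and the median was 0.20 beside 0.00. At an unadjusted p under 0.05 in edgeR's test, 4 were higher and 0 lower, and DESeq2 called 3 higher and 0 lower. The count of 3 fell to 1, Mfng, with limma on the FPKM values and without any 1 of Het replicates 1 and 2 and KO replicates 1, 2 and 3, and the count over all genes fell from 2556 to 1467 without KO replicate 1 and to 1432 without KO replicate 2. Without KO replicate 3, the female library, the 6 calls of KO against WT stayed at 6. These 3 comparisons share libraries and are not independent of each other.

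**Figure D1:**
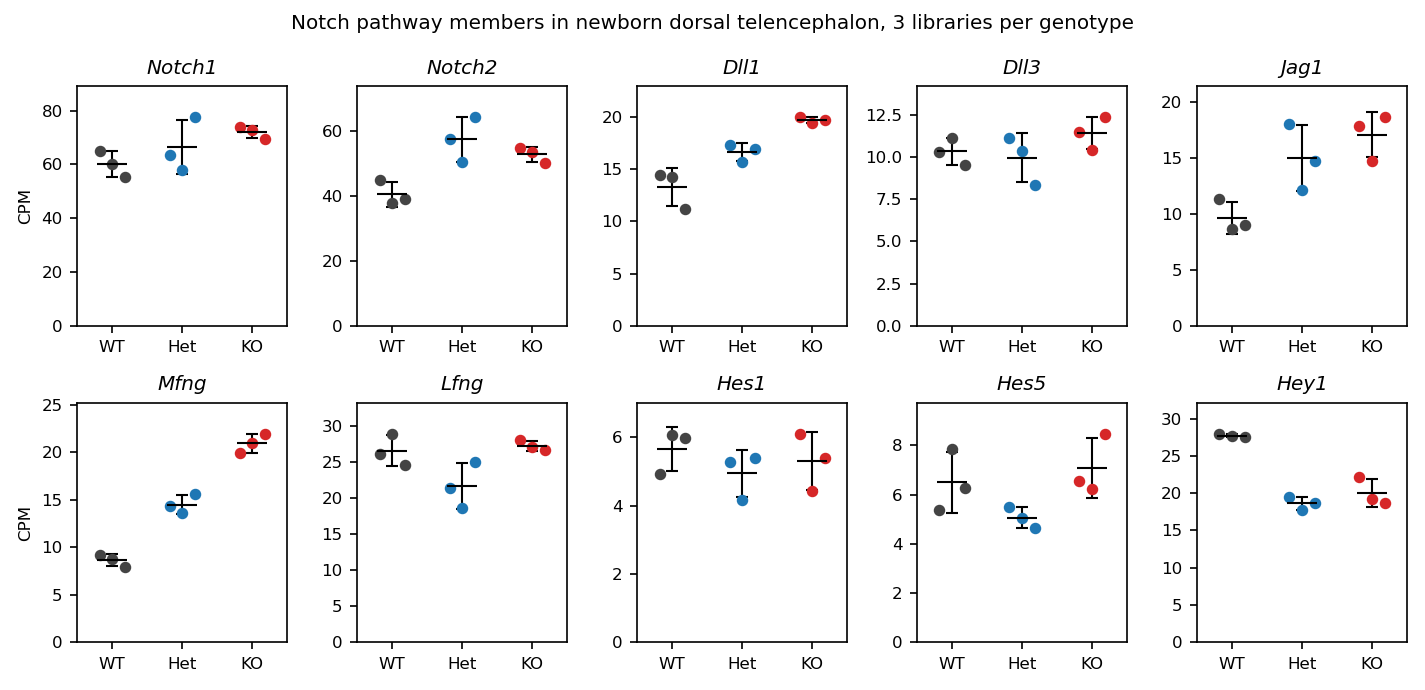
CPM on a linear axis from 0 for each of the 10 genes, 1 point per library, with the mean and SD (n = 3) of each genotype. Mfng rises over the genotypes from 8.64 to 14.5 to 20.9 without overlap, Hey1 sits at 27.5 to 28.0 in WT and 17.8 to 22.2 in the other 6 libraries, and Lfng and Hes5 have their lowest means in Het.

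Short stretches before the start sites are shown for 5 of the genes because 2 of them, Hes5 and Lfng, hold the RBPJ core and the 3 ligands hold E-boxes of the kinds that proneural and E proteins bind, in Dll1 before 1 of its 2 start sites. They are RefSeq sequences of GRCm38.p6, the 250 bases before the RefSeq start, on the strand of the gene, 5' to 3'. Capitals mark the RBPJ core GTGGGAA and the E-boxes CAGCTG and CAGGTG, on either strand.
Hes5 (chr4:154960673-154960922, plus strand): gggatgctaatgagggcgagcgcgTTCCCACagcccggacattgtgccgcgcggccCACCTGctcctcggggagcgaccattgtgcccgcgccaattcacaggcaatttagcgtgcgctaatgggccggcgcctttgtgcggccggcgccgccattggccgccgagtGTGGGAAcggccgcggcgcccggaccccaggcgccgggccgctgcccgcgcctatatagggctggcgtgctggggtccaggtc
Lfng (chr5:140607091-140607340, plus strand): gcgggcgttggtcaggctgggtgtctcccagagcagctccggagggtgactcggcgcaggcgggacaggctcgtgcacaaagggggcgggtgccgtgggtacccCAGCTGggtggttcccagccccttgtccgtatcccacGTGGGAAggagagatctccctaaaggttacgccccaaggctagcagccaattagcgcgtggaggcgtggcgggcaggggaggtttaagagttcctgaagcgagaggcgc
Dll1 (chr17:15376933-15377182, minus strand): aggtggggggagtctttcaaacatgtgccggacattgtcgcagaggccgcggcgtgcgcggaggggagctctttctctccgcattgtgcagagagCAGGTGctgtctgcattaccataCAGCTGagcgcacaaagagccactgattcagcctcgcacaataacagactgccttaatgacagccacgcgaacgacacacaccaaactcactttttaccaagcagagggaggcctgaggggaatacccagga
Dll3 (chr7:28301786-28302035, minus strand): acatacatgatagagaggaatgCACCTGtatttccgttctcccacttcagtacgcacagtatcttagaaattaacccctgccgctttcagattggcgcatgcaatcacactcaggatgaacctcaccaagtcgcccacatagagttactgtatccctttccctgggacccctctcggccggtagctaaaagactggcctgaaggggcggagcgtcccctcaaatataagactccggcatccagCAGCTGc
Jag1 (chr2:137116521-137116770, minus strand): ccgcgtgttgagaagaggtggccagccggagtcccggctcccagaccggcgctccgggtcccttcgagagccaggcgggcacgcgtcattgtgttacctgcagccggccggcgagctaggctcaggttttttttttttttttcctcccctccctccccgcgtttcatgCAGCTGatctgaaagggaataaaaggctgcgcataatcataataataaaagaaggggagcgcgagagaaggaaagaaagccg

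Of the 10 genes, 7 had a sequence in the table, with 8 start sites, of which Dll1 had 2. The RBPJ core lay at -226 to -220 and at -83 to -77 from the Hes5 start and at -109 to -103 from the Lfng start, and 5.42% of the 32851 mouse promoter windows of this length hold it at least once. CAGCTG lay at -146 to -141 in Lfng, -132 to -127 in Dll1, -7 to -2 in Dll3 and -82 to -77 in Jag1, with a share of 13.0% over all windows. CAGGTG or its reverse complement CACCTG lay at -194 to -189 in Hes5, -155 to -150 in Dll1 and -228 to -223 in Dll3, with a share of 17.2%. The general E-box CANNTG, which contains both of these, is in 66.2% of windows, and the N-box CACNAG, which Hes repressors bind, is in 36.7%. Notch1 and Notch2 each held 1 N-box and neither E-box kind, and Lfng held 1 N-box and a second E-box, CACGTG, at -112 to -107 that overlaps its RBPJ core. The other Dll1 start, with its window at chr17:15375824-15376073, held neither CAGCTG nor CAGGTG. By the gene bounds of GENCODE M21, the windows of Dll3, of Notch1 and of this other Dll1 start lie inside the gene. Those of Jag1, Lfng and Notch2 lie partly inside it, so positions here are relative to the RefSeq start only. A match is a description of letters and was not tested as a site of binding.

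Both receptors were called higher in KO than in WT. Gene positions are those of GENCODE M21 on mm10. Notch1 (chr2:26457903-26516663), the main receptor of neural progenitors, had 64.9, 60.3 and 55.3 CPM in the WT libraries, 63.4, 58.1 and 77.5 in Het and 74.0, 72.7 and 69.5 in KO. Each KO library was above each WT library, and Het spanned both. The log2 change was 0.26 (SE 0.09, adjusted p = 0.028) for KO against WT and 0.14 (SE 0.09, adjusted p = 0.23) for Het against WT. The KO call was lost without WT replicate 2 (adjusted p = 0.061), WT replicate 3 (0.12), KO replicate 1 (0.085) or KO replicate 2 (0.071), and Het against WT was called without Het replicate 2 (log2 change 0.25, adjusted p = 0.035). KO against Het gave 0.12 (SE 0.09, adjusted p = 0.43), and was called without Het replicate 3 (0.24, adjusted p = 0.038).

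Notch2 (chr3:98013527-98150361), a receptor found on progenitors and in vessel walls, had 44.8, 37.7 and 39.0 CPM in WT, 57.6, 50.4 and 64.2 in Het and 54.8, 53.4 and 50.1 in KO. Each Het and each KO library was above each WT library, and Het was not between WT and KO. The log2 change was 0.50 (SE 0.09, adjusted p = 0.00019) for Het and 0.38 (SE 0.09, adjusted p = 0.0015) for KO, and no difference of KO from Het was called (-0.12, SE 0.09, adjusted p = 0.38). Summed endothelial markers were 178 to 181 CPM in WT, 213 to 230.5 in Het and 198 to 205 in KO, and mural markers were 104 to 112, 166 to 179.7 and 174 to 186. By gene, 4 of the 11 endothelial markers were called higher and 2 lower in KO against WT (median log2 change 0.07), and 10 and 0 in Het (0.39). Of the 6 mural markers, 3 were called higher and 0 lower in KO (median 0.27), and 4 and 0 in Het (0.51). The part of these cells in the Notch2 difference was not tested. In bulk RNA, fewer cells of a type and less RNA per cell cannot be told apart, which holds for every gene here.

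Among the ligands, Dll1 and Jag1 were higher and Dll3 was not called. Dll1 (chr17:15367354-15376872), the Delta ligand of cells entering neurogenesis, had 14.5, 14.3 and 11.2 CPM in WT, 17.3, 15.7 and 16.9 in Het and 19.98, 19.5 and 19.7 in KO. No library of one genotype overlapped another genotype, with Het between WT and KO. The log2 change was 0.57 (SE 0.10, adjusted p = 0.00012) for KO against WT, 0.32 (SE 0.10, adjusted p = 0.014) for Het against WT and 0.25 (SE 0.10, adjusted p = 0.090) for KO against Het. Het against WT fell to 0.21 (adjusted p = 0.089) without WT replicate 3, the lowest WT library, and KO against Het then had an adjusted p of 0.0499. The antisense transcript A930024N18Rik, which overlaps Dll1, had 79, 90 and 84 counts in WT, 29, 73 and 67 in Het and 73, 53 and 64 in KO, so its counts were not higher in the mutants, but without a stated strand setting the reads of the 2 genes cannot be separated.

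Jag1 (chr2:137081456-137116644), a Jagged ligand found on progenitors and in vessel walls, had 11.3, 8.64 and 8.99 CPM in WT, 18.0, 12.1 and 14.7 in Het and 17.8, 14.7 and 18.6 in KO. Both mutant genotypes were above WT in each library, with wide spread in Het, and they overlapped each other. The log2 change was 0.82 (SE 0.15, adjusted p = 0.00034) for KO and 0.63 (SE 0.15, adjusted p = 0.0034) for Het against WT. Dll3 (chr7:28293553-28302238), a divergent Delta protein that acts within the cell that makes it, had 10.3, 11.1 and 9.55 CPM in WT, 11.2, 10.4 and 8.33 in Het and 11.5, 10.4 and 12.4 in KO. The genotypes overlapped, and its log2 change was 0.15 (SE 0.12, adjusted p = 0.32) for KO against WT and -0.06 (SE 0.12, adjusted p = 0.74) for Het. Neither Jag1 (0.19, SE 0.14, adjusted p = 0.40) nor Dll3 (0.20, SE 0.12, adjusted p = 0.28) was called in KO against Het.

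Of the Fringe enzymes, Mfng was called higher in both mutants, and Lfng was called lower in Het. Mfng (Manic fringe, chr15:78755882-78773475) had 9.17, 8.82 and 7.92 CPM in WT, 14.4, 13.6 and 15.6 in Het and 19.9, 20.9 and 21.9 in KO. The genotypes did not overlap in any pair. It rose 1.68-fold in Het (log2 change 0.75, SE 0.10, adjusted p = 9.5e-06) and 2.43-fold in KO (1.28, SE 0.10, adjusted p = 1.1e-08), and was 1.44-fold higher in KO than in Het (0.53, SE 0.09, adjusted p = 0.00060), the largest change of the 10 genes in all 3 comparisons. Lfng (Lunatic fringe, chr5:140607320-140615545), an enzyme of cortical progenitors, had 26.1, 28.9 and 24.6 CPM in WT, 21.4, 18.6 and 25.0 in Het and 28.0, 27.1 and 26.6 in KO. KO lay within the WT range (log2 change 0.04, SE 0.10, adjusted p = 0.77), and Het was below KO in each library but overlapped WT. The Het fall against WT (-0.29, SE 0.10, adjusted p = 0.021) was lost with limma on the FPKM values (adjusted p 0.066 and 0.068 at pseudocounts of 0.1 and 1) and without WT replicate 2 (0.097), Het replicate 1 (0.069) or Het replicate 2 (-0.18, 0.15). The difference of KO from Het (0.33, SE 0.10, adjusted p = 0.026) was lost under 7 of 18 alternatives, among them without Het replicate 2 (0.22, 0.16) and without KO replicate 1 (0.10).

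The count of Mfng for each count of Lfng was compared because both enzymes act on the same receptor sites, a ratio chosen after values were seen. It was 0.351, 0.305 and 0.322 in WT, 0.672, 0.730 and 0.622 in Het and 0.711, 0.774 and 0.824 in KO. Each of the 6 mutant libraries was above the WT libraries, and KO and Het overlapped. The ratio of Dll1 to Notch1 counts was 0.223, 0.237 and 0.202 in WT, 0.273, 0.270 and 0.219 in Het and 0.270, 0.268 and 0.284 in KO, with Het spanning both. The ratio of Hes5 to Notch1 counts had means of 0.109 in WT, 0.0777 in Het and 0.0986 in KO. That of Hes1 to Hes5 counts had means of 0.880, 0.984 and 0.759. In both of these the 3 genotypes overlapped. None of the ratios is scaled for gene length. Of the 31-base words of Hes5 25.7% occur in other genes, with 17.9% for Dll1, 9.40% for Notch1 and 4.28% for Notch2, and the remaining 6 genes at 0.522% or less.

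**Figure D2:**
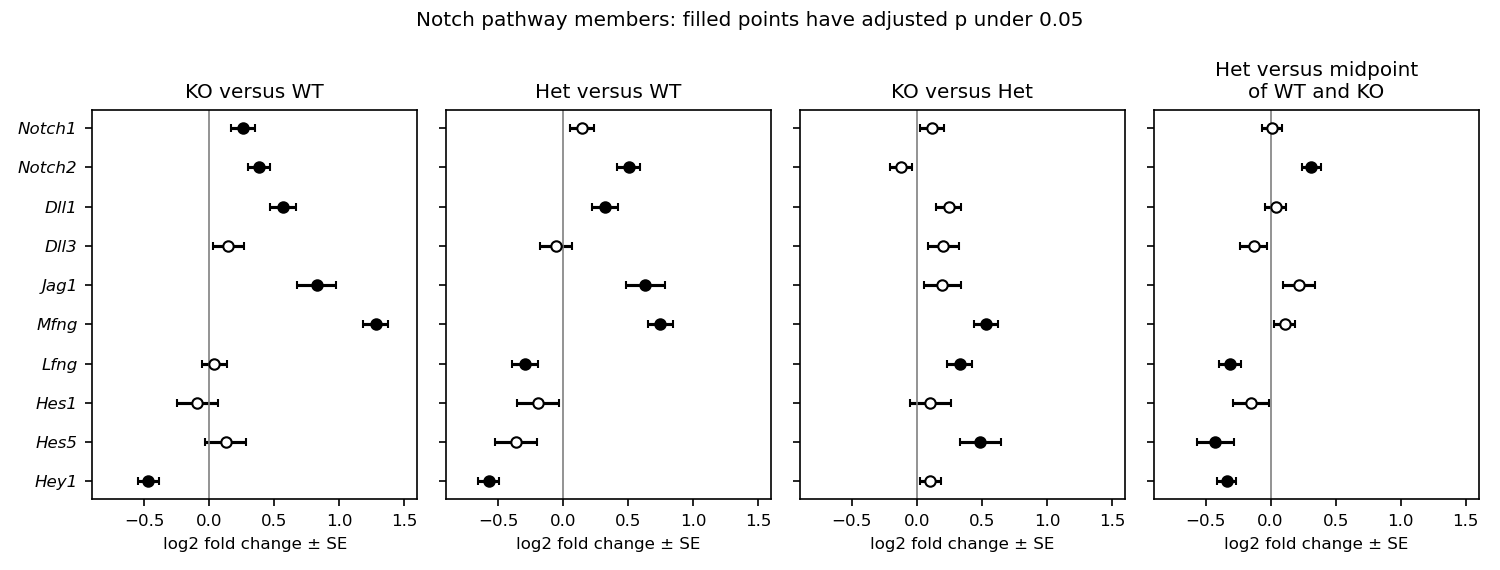
Log2 fold change of each of the 10 genes in KO versus WT, Het versus WT, KO versus Het, and Het versus the midpoint of WT and KO, with bars of 1 standard error from edgeR's quasi-likelihood fit and filled points for adjusted p under 0.05. Mfng is farthest from 0 in the first 3 panels, at 1.28, 0.75 and 0.53, Hey1 is at -0.47 and -0.57 against WT, and the midpoint panel is a description of a contrast added after the data were seen.

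Of the target genes, Hey1 was called lower in both mutants, and Hes5 and Hes1 were not called against WT. Hey1 (chr3:8663359-8667256), a repressor of the Hes and Hey family, had 28.0, 27.6 and 27.5 CPM in WT, 19.5, 17.8 and 18.7 in Het and 22.2, 19.3 and 18.6 in KO. The 3 WT libraries were tight and above every mutant library, and Het and KO overlapped. Hey1 fell 1.49-fold in Het (log2 change -0.57, SE 0.08, adjusted p = 2.6e-05) and 1.38-fold in KO (-0.47, SE 0.08, adjusted p = 0.00012). No difference of KO from Het was called (0.10, SE 0.08, adjusted p = 0.43). Summed markers that were lower in all 6 mutant libraries than in WT were those of astrocytes, striatal neurons, radial glia, the oligodendrocyte lineage, interneurons and microglia: 2029 to 2193 CPM in WT against 1665 to 1803 in the mutants for radial glia, 416 to 451 CPM in WT against 229 to 261 in the mutants for the oligodendrocyte lineage, 463 to 506 against 363 to 388 for interneurons and 88.1 to 97.9 against 45.6 to 52.3 for microglia. By gene, the radial glia list was mixed although its sum was lower. Of its 11 markers, 6 rose and 4 fell past the threshold in KO against WT, with a median log2 change of 0.41. For Het against WT, 6 rose and 5 fell, with a median of 0.29. The part of these cell types in the Hey1 fall was not tested.

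Hes5 (chr4:154960923-154962371), a direct Notch target of radial glia with 2 RBPJ cores in the sequence above, had 5.37, 7.84 and 6.28 CPM in WT, 5.49, 5.04 and 4.63 in Het and 6.55, 6.21 and 8.47 in KO. Het was below KO in each library and overlapped WT, and KO overlapped WT. The log2 change was 0.12 (SE 0.16, adjusted p = 0.53) for KO against WT and -0.36 (SE 0.16, adjusted p = 0.078) for Het against WT, which was called without WT replicate 1 (-0.48, adjusted p = 0.035). KO against Het gave 0.49 (SE 0.16, adjusted p = 0.045) and was lost under 12 of 18 alternatives, with adjusted p from 0.0505 to 0.21. Hes1 (chr16:30064384-30067796), which represses proneural genes and its own promoter, had 4.92, 6.06 and 5.98 CPM in WT, 5.29, 4.16 and 5.39 in Het and 6.10, 4.42 and 5.38 in KO. The 3 genotypes overlapped, with log2 changes of -0.19 (SE 0.16, adjusted p = 0.34) for Het and -0.09 (SE 0.16, adjusted p = 0.65) for KO against WT and 0.10 (SE 0.16, adjusted p = 0.72) for KO against Het. Hes1 had 109 to 175 counts and Hes5 119 to 255 counts per library, and had the widest standard errors of the 10 genes.

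Het against the midpoint of WT and KO on the log2 scale was added after the data were seen, because several of the genes had their lowest or highest mean in Het. The means were lowest in Het for Lfng, Hes5, Hey1, Hes1 and Dll3 and highest in Het for Notch2. Since those means prompted the contrast, the members' values are a description with no test. The difference of Het from the midpoint was -0.31 for Lfng (SE 0.08), -0.43 for Hes5 (SE 0.14), -0.34 for Hey1 (SE 0.07), -0.15 for Hes1, -0.13 for Dll3 and 0.31 for Notch2 (SE 0.07). It was 0.04 for Dll1, 0.11 for Mfng, 0.01 for Notch1 and 0.22 for Jag1, which moved to 0.36 without Het replicate 2. Of all genes tested, 24.5% passed the threshold in this contrast, 11.7% higher and 12.7% lower, and 4 of the 10 genes did, from which nothing is read.

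Levels of different genes can be set side by side only per length of transcript. By CPM per kilobase of merged exons in WT, the order was Lfng (10.6 ± 0.87, SD, n = 3), Hey1 (8.49 ± 0.067), Hes5 (4.77 ± 0.91), Notch1 (4.22 ± 0.34), Notch2 (3.75 ± 0.35), Dll3 (3.62 ± 0.28), Dll1 (3.16 ± 0.44), Mfng (3.04 ± 0.23), Hes1 (2.78 ± 0.31) and Jag1 (1.65 ± 0.25). Lfng, Hey1 and Jag1 stood apart from their neighbours, and each pair of neighbours from Hes5 to Hes1 differed by less than the sum of their SDs. In KO, Mfng (7.38 ± 0.35) was next after Lfng (10.9 ± 0.29) and before Hey1 (6.14 ± 0.58). The deposited FPKM gives a different order, with Notch1 first at 38.8 in WT and 47.6 in KO, because its length behind the FPKM works out at 1519 bases against 14232 of merged exons. Mfng had 9.38, 16.3 and 23.3 FPKM in WT, Het and KO and Hey1 had 12.3, 8.59 and 9.13, which is the same direction as in CPM.

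The remaining pathway was taken from 50 genes sorted by role, of which 48 were tested (Hes2 and Hes3 had at most 0.23 CPM). In KO against WT, 18 were called higher and 15 lower, with a median log2 change of 0.07 beside 0.01 for all genes. In Het against WT 14 were called higher and 13 lower, and in KO against Het 4 and 2. Of the nuclear partners of the receptor, 9 of 12 were higher and 1 lower in KO (median 0.35), and 7 and 1 in Het (median 0.25). The trafficking and ubiquitin genes had more calls lower than higher, with 6 of 12 lower and 1 higher in KO (median -0.18) and 4 lower and 1 higher in Het (-0.17). Proteases had 5 higher and 3 lower of 9 in KO, and 2 higher and 1 lower in Het. The other target genes had 1 higher and 1 lower of 5 in KO (median -0.25), and 1 higher and 4 lower in Het (median -0.56). These counts stand beside 26.5% and 26.3% of all genes in KO and 22.5% and 23.4% in Het, and 8.3% and 8.44% in KO against Het.

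**Figure D3:**
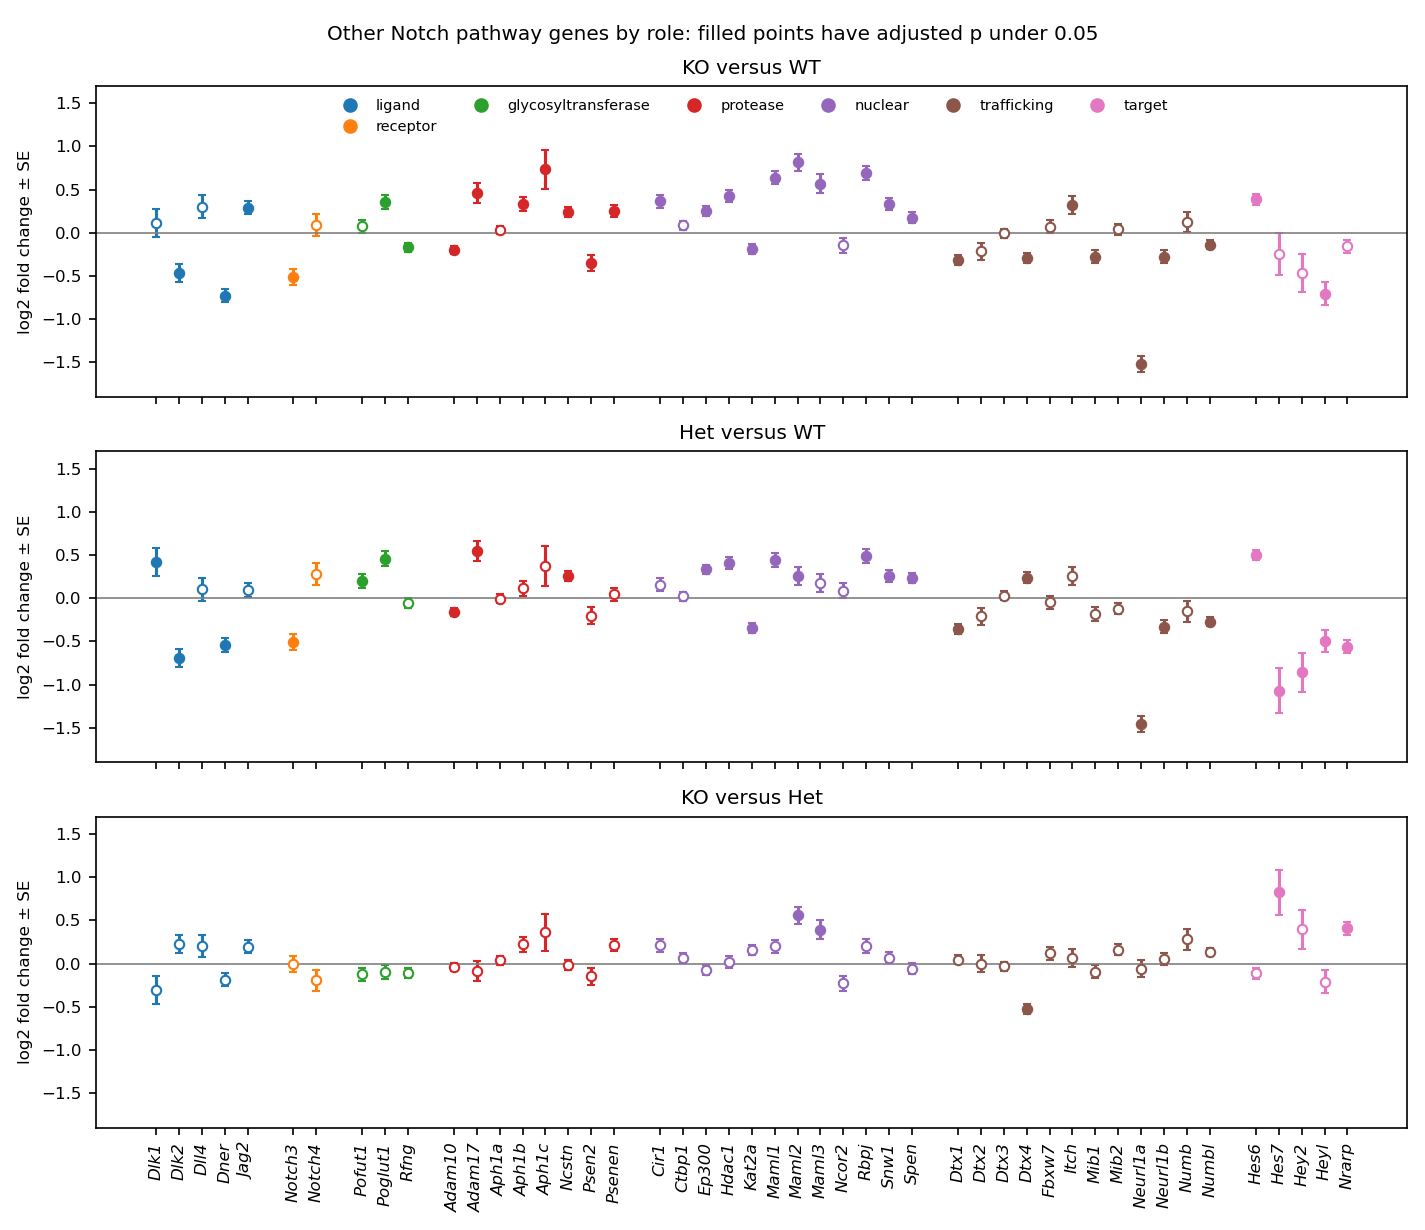
Log2 fold change of 47 of the 48 other pathway genes tested, 1 point per gene with its standard error, by role, in 1 panel per comparison, with filled points for adjusted p under 0.05. Nuclear partners lie mostly above 0 and trafficking genes mostly below it in both comparisons with WT, with Neurl1a the lowest point at -1.52 and -1.46.

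Rbpj, the DNA-binding partner of the receptor, had 38.2, 41.7 and 39.0 CPM in WT, 62.3, 56.7 and 48.4 in Het and 65.2, 64.7 and 62.3 in KO, with log2 changes of 0.69 (SE 0.08, adjusted p = 1.9e-06) for KO and 0.49 (SE 0.08, adjusted p = 0.00011) for Het. The Mastermind coactivators Maml2 and Maml1 were higher in KO by 0.82 (SE 0.10, adjusted p = 3.3e-06) and 0.64 (SE 0.08, adjusted p = 3.5e-06). Maml2 (0.56, adjusted p = 0.00074) and Maml3 (0.39, adjusted p = 0.016) were also higher in KO than in Het. The Maml3 call was lost with limma on the FPKM values (adjusted p 0.057 and 0.068) and without Het replicate 2 (0.060), KO replicate 1 (0.055) or KO replicate 2 (0.066). All mutant libraries were above all WT libraries for Rbpj and Maml2, and the share of all genes with such a gap was not counted. In Het against WT, however, Maml2 was only 0.26 higher (SE 0.10, adjusted p = 0.046), a call lost under 11 of 18 alternatives. The gamma-secretase subunit gene Aph1c was higher in KO by 0.73 (SE 0.22, adjusted p = 0.011), but 25.3% of its 31-base words occur in other genes, so reads may be split with its copies, and the call was lost without KO replicate 3 (0.61, adjusted p = 0.054). That share was 11.8% for Rbpj, and among the other nuclear partners 45.2% for Snw1, 42.1% for Cir1 and 40.0% for Hdac1, so their counts are uncertain too.

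The 4 largest rises in Het were that of Rbpj and those of the ADAM protease gene Adam17 (0.55, SE 0.12, adjusted p = 0.0013), Hes6, an antagonist of Hes1 (0.50, SE 0.06, adjusted p = 6.3e-06), and Poglut1, which adds glucose to the receptor (0.46, SE 0.08, adjusted p = 0.00031). Neurl1a, a ubiquitin ligase of the Neuralized family, showed the widest gap of the pathway, at 99.6, 86.6 and 97.5 CPM in WT, 32.3, 39.7 and 31.3 in Het and 36.9, 31.8 and 30.4 in KO (-1.52, SE 0.10, adjusted p = 9.5e-09 in KO and -1.46, SE 0.10, adjusted p = 2.6e-08 in Het). The striatal marker sum was lower in the same 6 libraries, and its part in the Neurl1a difference was not tested. Of the 31-base words of Neurl1a 10.1% occur in other genes, and a gene model on the same strand overlaps it. The non-canonical ligand Dner fell by 0.73 on the log2 scale in KO (SE 0.08, adjusted p = 2.3e-06) and Dlk2 by 0.70 in Het (SE 0.10, adjusted p = 5.4e-05).

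Notch3 and Heyl, which textbooks place in vessel mural cells, were lower in both mutants. Notch3 had 46.0, 45.0 and 46.1 CPM in WT, 27.8, 30.5 and 38.1 in Het and 33.7, 30.2 and 32.3 in KO (KO -0.51, SE 0.09, adjusted p = 0.00024), and Heyl had 8.63, 7.44 and 8.82 in WT, 5.94, 6.09 and 5.64 in Het and 5.30, 5.52 and 4.45 in KO (-0.71, SE 0.13, adjusted p = 0.00026). The mural marker sum was higher in the mutants, as given above, but by gene the list was uneven. Its 6 markers had log2 changes of 0.003 to 1.32 in KO, with 3 called, and -0.15 to 1.20 in Het, with 4 called. The part of mural cells in the Notch3 and Heyl differences was not tested.

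Nrarp, a Notch target that feeds back on the pathway, had 54.2, 55.9 and 54.4 CPM in WT, 39.7, 33.7 and 38.2 in Het and 52.0, 49.6 and 46.2 in KO. All Het libraries were below all others. It was at -0.56 in Het against WT (SE 0.07, adjusted p = 1.1e-05) and higher in KO than in Het by 0.41 (SE 0.07, adjusted p = 0.0010), with -0.15 (SE 0.07, adjusted p = 0.084) for KO against WT. The value against the midpoint was -0.48. Of its 31-base words 78.2% occur in other genes, and the opposite-strand gene model Gm38287 overlaps it, so its counts are uncertain. Hes7, at 0.615 to 1.51 CPM, was lowest in Het too (-1.07, SE 0.26, adjusted p = 0.0031), as was Hey2 (-0.86, SE 0.23, adjusted p = 0.0052), whose call was lost without WT replicate 3 (0.054). KO against Het for Hes7 (0.82, adjusted p = 0.038) was lost under 10 of 18 alternatives. In that comparison the ubiquitin ligase gene Dtx4 fell by 0.53 (SE 0.06, adjusted p = 1.4e-05).

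The proneural factor gene Neurog2 was called higher in each mutant. It had 6.59, 5.34 and 4.82 CPM in WT, 29.3, 23.5 and 24.1 in Het and 63.7, 59.9 and 61.9 in KO. Like Dll1 and Mfng, it had Het between WT and KO without overlap. The first principal component of all genes tested gave the same order, with WT at -64.5 to -54.3, Het at 20.3 to 24.9 and KO at 35.5 to 39.0. This order is thus not particular to these genes, and the share of all genes that show it was not counted. Against WT, the log2 change of Neurog2 was 3.47 in KO (SE 0.11, adjusted p = 3.5e-13) and 2.20 in Het (SE 0.11, adjusted p = 2.0e-10). Neurog1 had at most 0.16 CPM and was not tested. Summed markers of intermediate progenitors ran from 125 to 151 CPM in WT, 269.6 to 301 in Het and 419 to 459 in KO, with 7 of 8 called higher in each mutant, and those of cycling cells from 204 to 216, 304 to 323 and 392 to 412, with 10 of 10 and 9 of 10 higher. Both lists moved in the order WT, Het, KO, as did Dll1 and Mfng, and their part in those changes was not tested. The intermediate progenitor list holds Neurog2 itself, and also Gadd45g, so its sum and its calls are not separate from those genes. Radial glia markers summed to 2029 to 2193 CPM in WT, 1681 to 1803 in Het and 1665 to 1771 in KO, with 6 higher and 4 lower of 11 in KO. Cortical projection neuron marker sums overlapped over the genotypes, at 1751 to 1984, 1817 to 2053 and 1843 to 1965 CPM. By gene that list was mixed, with 2 of 8 called higher and 3 lower in KO against WT (log2 changes -1.77 to 0.98), and 2 and 3 in Het. The 5 choroid plexus markers summed to 2.02 to 4.29, 1.43 to 18.1 and 8.998 to 28.4. No marker of any list was at 0 in all 9 libraries.

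**Figure D4:**
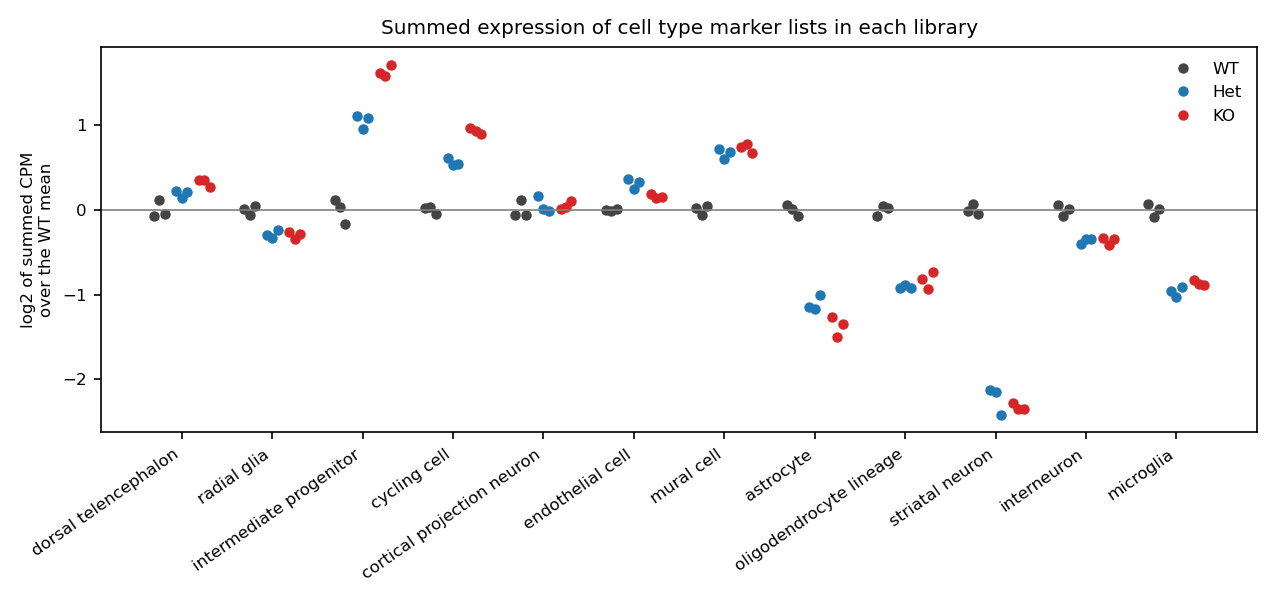
Log2 of the summed CPM of each marker list over its WT mean, 1 point per library, by genotype, for 12 lists. Intermediate progenitor and cycling lists rise from WT over Het to KO, and striatal, astrocyte and oligodendrocyte lineage lists sit higher in WT.

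The 2 genes closest in pattern to each member over the 9 libraries, by Pearson correlation of log2 CPM, are a description with no test, since all the genes share libraries and genotypes. Mfng was closest to Nup85 (0.995) and to Gadd45g (0.994), a growth arrest gene of intermediate progenitors, and Dll1 to Vangl2 (0.979), a planar polarity gene, and Cpsf7 (0.979). Hey1 was closest to Plppr2 (0.995) and Rnf208 (0.986), Notch2 to Sp2 (0.974) and Anks6 (0.973), Notch1 to Bcdin3d (0.976) and Atxn2l (0.976), and Jag1 to B4galt7 (0.983) and Lca5 (0.977). Dll3 was closest to Fbxw7 (0.955), the ubiquitin ligase of the Notch intracellular domain, and Ric8b (0.949), and Lfng to Rsrp1 (0.954) and Mrps27 (0.953). The weakest likeness was that of Hes1, to Cinp (0.876) and Tkfc (0.847), and Hes5 was closest to Hsd17b4 (0.937) and Caprin1 (0.922). Among the members themselves, Dll1 and Mfng (0.947), Jag1 and Mfng (0.886) and Dll1 and Jag1 (0.878) were most alike, and Hey1 was most opposite to Notch2 (-0.801) and Mfng (-0.798).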

How the data were processed

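RNA was purified from snap-frozen dorsal telencephalon with an RNeasy plus kit and made into libraries with an NEBNext Ultra kit, per the labels' protocols. The deposited tables hold the authors' raw count per gene and their FPKM values, and each FPKM is the deposited count divided by the library total and 1 length per gene. The submitters' processing notes name HTSeq 0.6.1, DESeq 1.10.1, TopHat2 2.0.9, Bowtie2 2.0.6 and the build mm10, with no roles. Strand use and the treatment of shared reads are not given in the sources used here. Of 41128 genes, 40254 were paired with a symbol and position in GENCODE M21 (mm10).

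Counts were fitted with edgeR 4.0.16 (R 4.3.3): filterByExpr (minimum count 10, minimum total 15; 15271 genes with 99.9% of counts), TMM and 1 robust quasi-likelihood model over the 9 libraries (6 residual degrees of freedom), with p-values adjusted by Benjamini-Hochberg over the genes tested and a threshold of 0.05. SE is the log2 fold change over the square root of F. The fit was tested on simulated data. Alternatives used DESeq2 1.42.0 and limma 3.58.1. No 2 libraries of the same genotype agreed within counting noise. The members, lists and tests were chosen with earlier results of these data known. All members are named, with up to 4 other pathway genes called in each direction per comparison by fold, 2 nearest genes per member, Tcf4, Neurog1 and Neurog2, and some results taken by this rule are not reported here. Xist, Ddx3y, Fos and values of a named gene in other comparisons were chosen after values were seen.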

Additional observations from a re-analysis of the deposited data

How the results depend on the processing

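No direction of a called value turned under an alternative. The count of all genes called in KO against Het ranged from 1432 to 2561 when 1 library was left out (2556 with all). The count of the 10 members called there ranged from 1 to 3, and was 1 with limma on log2(FPKM + 1) and 1 on log2(FPKM + 0.1). The count of other pathway genes called there was 10 with no filter on low counts (6 with it). Against the midpoint, a contrast added after the data were seen, members past the threshold ranged from 2 to 4, with 2 without Het replicate 1. The other counts of calls stayed within 1.5 times. Over the members' fold changes, 4 of 180 values against WT in KO lost their call, and in Het 6 lost and 2 gained one; against Het, 19 lost and 2 gained one. The same replicate numbers did not mark pairs: same-numbered libraries had correlations of -0.106 to 0.0844 over 9 pairs. With a replicate block, 7775 genes were called for KO against WT, 6641 for Het against WT and 2166 for KO against Het, and the members called were 6, 6 and 2, with Hes5 in KO against Het at an adjusted p of 0.068. The median log2 fold change of all genes moved by at most 0.049 under any alternative. A fit of only the genotypes compared was not run for the midpoint, which needs all 3. Hes1 and Hes5 had the fewest counts of the members, at 109 to 255, and whether depth sets their spread was not tested. The tables cannot separate cell numbers from RNA per cell. The cause of these shifts was not tested.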
